A study of Rattus norvegicus with 18 samples.

Results

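The small RNA of rat somatosensory cortex at the day of birth (P0) was set against that at postnatal day 3 (P3). The members were chosen by their sample labels and were 6 of the 18 libraries of the series, from 3 of its 9 tissue samples. P0 was represented by biological replicates 1 and 2 and P3 by 1 tissue sample, and each was sequenced in 2 runs. All were cortex of Sprague Dawley rats, dissected from the dorsal lateral cortex with the meninges and subcortical tissue removed. The sources used here do not say whether a sample held 1 animal or several. The runs repeat the sequencing of 1 tissue sample and are no biological replicates, so the P0 samples carry the only biological spread (n = 2) and the P3 value has none of its own. The rest of the series covered E10 to E17 and P7 to P28.

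MicroRNAs (miRNAs) are RNAs of about the length of these tags that guide the RISC complex to messenger RNAs, mainly through the seed, the bases at positions 2 to 8. Each is cut from a hairpin that can give a 5p and a 3p strand, and hairpins that lie together are often transcribed together. In the first days after birth the rat cortex completes neuronal migration, and axon growth, synapse formation and gliogenesis follow. Among the miRNAs of this tissue, miR-124, miR-9 and miR-128 are known as neural miRNAs, and the miR-17-92 group and its paralogs are known from proliferating progenitors.

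The miRNAs on which the comparison turns are printed here with the seed in capitals, to let shared seeds be seen. The mature sequences are those of RefSeq for build GRCr8, and the DNA letters of Candidate 11 come from the supplementary list of candidate miRNAs.

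Higher at P3:
rno-miR-206-3p: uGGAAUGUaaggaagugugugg
rno-miR-199a-3p: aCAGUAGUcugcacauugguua
rno-miR-128-3p: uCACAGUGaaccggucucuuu
rno-miR-127-3p: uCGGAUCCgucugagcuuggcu
rno-miR-433-3p: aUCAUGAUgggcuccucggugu
rno-miR-221-5p: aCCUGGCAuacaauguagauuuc
rno-miR-1839-5p: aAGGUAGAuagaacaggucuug
Candidate 11: cTAAGGCAggcagacttcagtg
Lower at P3, with the seed-sharing rno-miR-17-5p and rno-miR-25-3p beside them:
rno-miR-130b-3p: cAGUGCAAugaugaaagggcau
rno-miR-106b-5p: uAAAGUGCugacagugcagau
rno-miR-17-5p: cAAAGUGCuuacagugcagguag
rno-miR-92a-3p: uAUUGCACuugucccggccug
rno-miR-25-3p: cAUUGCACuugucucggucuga
rno-let-7e-5p: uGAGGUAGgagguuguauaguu
rno-miR-125a-5p: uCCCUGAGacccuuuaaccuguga

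In GRCr8, miR-206-3p lies on the plus strand at chr9:30590747-30590768 and miR-199a-3p on the plus strand at chr13:77116294-77116315, within the span of Dnm3. The mature miR-128-3p is encoded at chr8:120963807-120963827 on the minus strand, within the span of Arpp21, and at chr13:42251933-42251953 on the plus strand, within the span of R3hdm1. miR-433-3p (chr6:134327421-134327442) and miR-127-3p (chr6:134328510-134328531) start 1089 bases apart on the plus strand, within the span of Rtl1. Among the miRNAs that were lower, miR-106b-5p (chr12:22157103-22157123, minus strand) lies within the span of Mcm7 together with miR-25-3p. let-7e-5p (chr1:67350243-67350264) and miR-125a-5p (chr1:67350689-67350712) start 446 bases apart on the plus strand, within the span of Spaca6. Exons and introns were not analysed here.

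The libraries held 6916489 to 14858820 clean reads, and 87.1 to 91.2% of the reads of a library fitted a named miRNA or candidate. Run 1 of P0 replicate 1 stood apart. It was the shallowest, and 49.4% of its reads were tags of 18 to 20 nt, against 19.4 to 30.7% in the other 5 libraries. Tags of 22 nt made up 20.99% of its reads (95% Wilson interval 20.96 to 21.02, counting error only) and 33.0 to 40.6% of those elsewhere. The same tissue in run 2 had 40.6%. In run 1 of P0 replicate 1, 90.3% of the reads of miR-103-3p and 80.3% of those of miR-124 ended at least 2 nt before the mature 3' end, against 40.1 to 61.6% and 21.4 to 43.0% in the other libraries. For miR-128-3p that share was 8.41% there and 4.80 to 8.92% elsewhere.

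**Figure D1:**
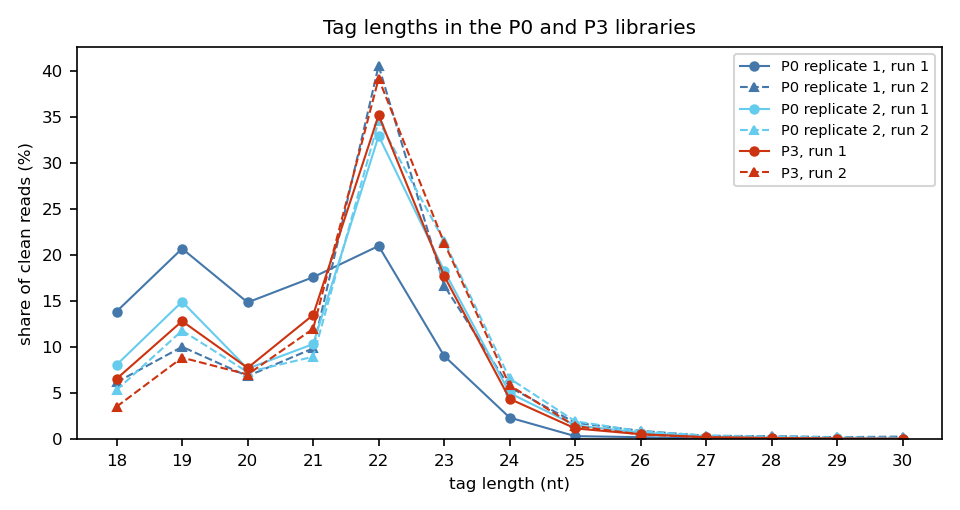
Share of clean reads (%, vertical axis) by tag length (nt, horizontal axis) in each of the 6 libraries, with circles and full lines for run 1 and triangles and dashed lines for run 2. Run 1 of P0 replicate 1 reaches 20.99% at 22 nt, and the others 33.0 to 40.6%.

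Levels are given as TPM, reads per 1000000 clean reads of the library, over tags seen in both runs of a tissue sample. A level without a run is the mean of the runs, and a log2 change is P3 minus the P0 mean after adding 1 TPM. A miRNA was counted as higher (or lower) at P3 when it was above (or below) both P0 samples in run 1 and again in run 2. Its change was then set beside the P0 difference, the size of the log2 difference between the P0 samples. The comparison took in 175 miRNAs and candidates with at least 50 TPM at P3 or in the P0 mean. P3 lay above both P0 samples for 44 of them in run 1 and 80 in run 2, and below both for 38 and 32. By the rule over both runs, 28 (16.0%) were higher and 18 (10.3%) lower at P3. The change was larger than the P0 difference in 17 (9.71%) of the higher and 8 (4.57%) of the lower names. The median P0 difference over the 175 names was 1.15, larger than the median size of the change at P3, 0.65, and it exceeded 1 for 96 of them. The median change was -0.15, but it turned to 0.18 without run 1 of P0 replicate 1 and was -0.22 in run 1 and 0.17 in run 2.

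The P0 difference was 1.76 in run 1 and 0.67 in run 2 (medians). The runs of P0 replicate 1 differed by a median of 1.70 on the log2 scale, those of P0 replicate 2 by 0.89 and those of P3 by 0.69. With run 1 of P0 replicate 1 left out and the 50 TPM minimum applied to what remained, 39 names were higher and 13 lower past the P0 difference. Of the 175 names above, 43 (24.6%) and 14 (8.0%) then were. These held 15 of the 17 higher names, without miR-221-5p and miR-139-5p, and 6 of the 8 lower names, without miR-125a-5p and miR-301a-5p.

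**Figure D2:**
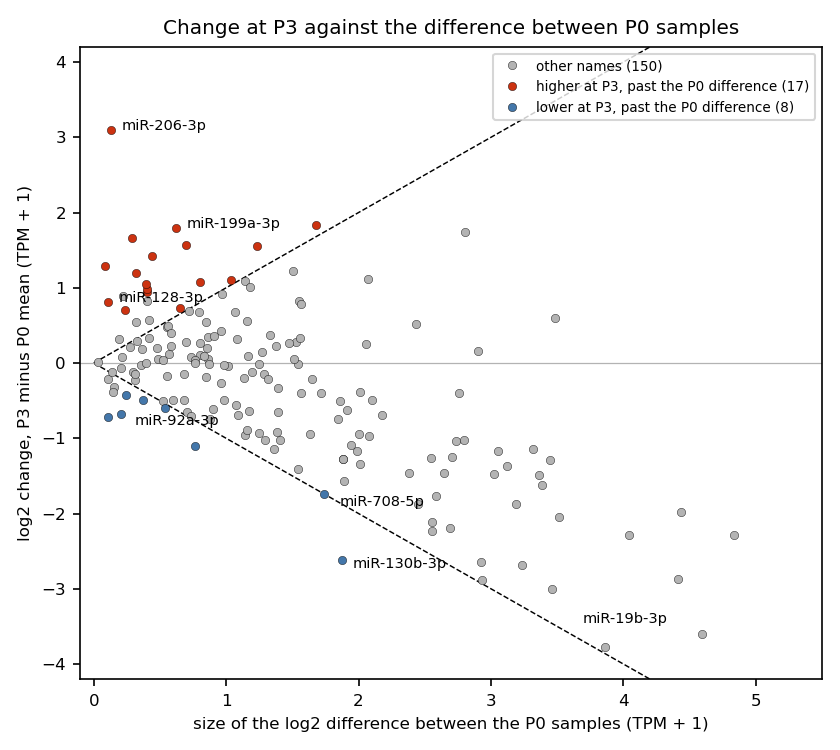
Each point is 1 of the 175 miRNAs and candidates, with the size of the log2 difference between the P0 samples on the horizontal axis and the log2 change at P3 from the P0 mean on the vertical axis (TPM + 1). Dashed lines mark a change equal to the P0 difference, and the 17 red and 8 blue points lie outside them and passed in both runs.

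The edgeR quasi-likelihood test on counts summed over the runs called 1 of 475 names (0.211%) at a Benjamini-Hochberg adjusted p under 0.05, and 10 names had an unadjusted p under 0.05. The test assumed that the lone P3 sample varied like the P0 samples and had 1 residual degree of freedom. The called name was miR-1-3p, a miRNA of striated muscle that has the seed GGAAUGU of miR-206-3p. It measured 3.18 and 1.68 TPM in the runs of P0 replicate 1, 0.68 and 1.93 TPM in those of replicate 2, and 19.5 and 45.4 TPM at P3. The P3 runs were thus above every P0 library, at a level below the 50 TPM used for the other names. Its fitted log2 change was 4.28 (adjusted p = 0.0295, edgeR). The call was kept with DESeq2 (adjusted p = 0.0016), in run 2 alone (0.00104) and with no filter on low counts (0.00678). The fitted log2 change was 3.70 to 4.24 in the settings that follow, in which the call was lost. These were run 1 alone (0.999), without TMM factors (0.9997), with the runs as a block (0.172), without run 1 of P0 replicate 1 (0.236), over tags seen in both runs (0.499) and over tags identical to the mature sequence (0.432).

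Among the names of at least 50 TPM, miR-206-3p, also a striated muscle miRNA, had the largest log2 change of those that were higher. It stood at 5.49 and 15.7 TPM in P0 replicate 1, 5.65 and 17.7 TPM in replicate 2, and 41.5 and 164 TPM at P3. All P3 runs lay above all P0 libraries, and the P0 samples were close to each other. The level was 11.1 ± 0.77 TPM at P0 (SD, n = 2) and 103 TPM at P3, a log2 change of 3.10 beside a P0 difference of 0.13 (edgeR adjusted p = 0.341). miR-1b, which shares the seed GGAAUGU, was at 63.0 ± 9.0 TPM at P0 (SD, n = 2). It reached 150 and 252 TPM in the P3 runs, against at most 72.7 TPM in a P0 library, a log2 change of 1.66.

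Of the 4 striated muscle miRNAs listed, miR-1-3p and miR-206-3p were both higher at P3, and miR-133a and miR-133b, which also mark striated muscle, had 0 tags seen in both runs of a tissue sample. Counting tags of either run, neither strand of them exceeded 4 reads in any of the 6 libraries. The sum of miR-1-3p and miR-206-3p was 6.34 to 19.6 TPM in the P0 libraries and 61.0 and 210 TPM at P3. The neural miRNAs stood far above these, miR-128-3p at 115312 TPM, miR-124 at 38225 TPM and miR-9a-5p at 28367 TPM at P3.

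miR-199a-3p, known from mesenchymal cells and blood vessel walls, was higher in the same way. Its levels were 373 and 79.9 TPM in P0 replicate 1, 499 and 198 TPM in replicate 2, and 1183 and 819 TPM at P3. Within each run and across runs the P3 values were the highest, although the runs of a P0 sample differed by several-fold. The log2 change was 1.80 beside a P0 difference of 0.62 (edgeR adjusted p = 0.999). Without run 1 of P0 replicate 1 the change of miR-199a-3p was 2.22 and the P0 difference 2.11. The other strand of the miR-199a-3p hairpin, miR-199a-5p, was at 2.42 ± 0.64 TPM at P0 (SD, n = 2) and 6.71 TPM at P3. It did not lie above both P0 samples in both runs.

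Markers of other cell types that a cortex sample can hold were looked at beside miR-199a-3p, and their part in its level was not tested. The mesenchyme list summed to 82.4 to 504 TPM in the P0 libraries and to 1194 and 821 TPM at P3. Nearly all of each sum was miR-199a-3p itself (1183 and 819 TPM at P3), so the list gave no separate marker. Of its 3 members 2 had tags seen in both runs, and miR-214 had at most 22 reads of a strand in a library. The smooth muscle and pericyte list (miR-143-3p and miR-145-5p) summed to 117 to 637 TPM at P0 and 351 and 230 TPM at P3. Within it, miR-145-5p was at 8.06 ± 4.89 TPM at P0 (SD, n = 2) and 34.5 TPM at P3, higher in both runs (log2 change 1.97, P0 difference 1.16) but under 50 TPM, and miR-143-3p at 277 ± 154 TPM and 256 TPM. In the endothelium list, miR-126a-3p was at 35.4, 24.8, 38.99 and 12.5 TPM in the P0 libraries and 49.0 and 25.7 TPM at P3, higher in both runs (log2 change 0.41, P0 difference 0.22) but under 50 TPM. miR-126a-5p, its opposite strand, was at 57.1 ± 43.8 TPM at P0 (SD, n = 2) and 43.2 TPM at P3, with mixed directions. The oligodendrocyte list summed to 95.2 to 365 TPM at P0 and 228 and 192 TPM at P3, and of its 2 members of at least 50 TPM 0 were higher and 0 lower. The blood list (4 of 6 with tags seen in both runs, the myeloid miR-223 having at most 7 reads of a strand in a library) summed to 30.1 to 112 TPM at P0 and 69.9 and 32.6 TPM at P3, and its red cell miRNA miR-451-5p was at 58.9 ± 15.1 and 41.1 TPM. The choroid plexus marker miR-204-5p was at 51.5 ± 30.7 and 57.3 TPM, and the liver miRNA miR-122-5p at 58.6 ± 47.6 and 34.7 TPM. The 5 epithelial miRNAs with tags seen in both runs summed to at most 3.04 TPM and the 2 such posterior Hox miRNAs to at most 3.44 TPM in any library. Without run 1 of P0 replicate 1, miR-126a-5p (log2 change 0.84), miR-143-3p (0.72), miR-122-5p (0.45) and the oligodendrocyte members miR-219a-2-3p (2.56) and miR-23a-3p (0.91) were higher past the P0 difference. Whether more cells of a type or more RNA per cell gave a level cannot be told apart in bulk tissue.

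**Figure D3:**
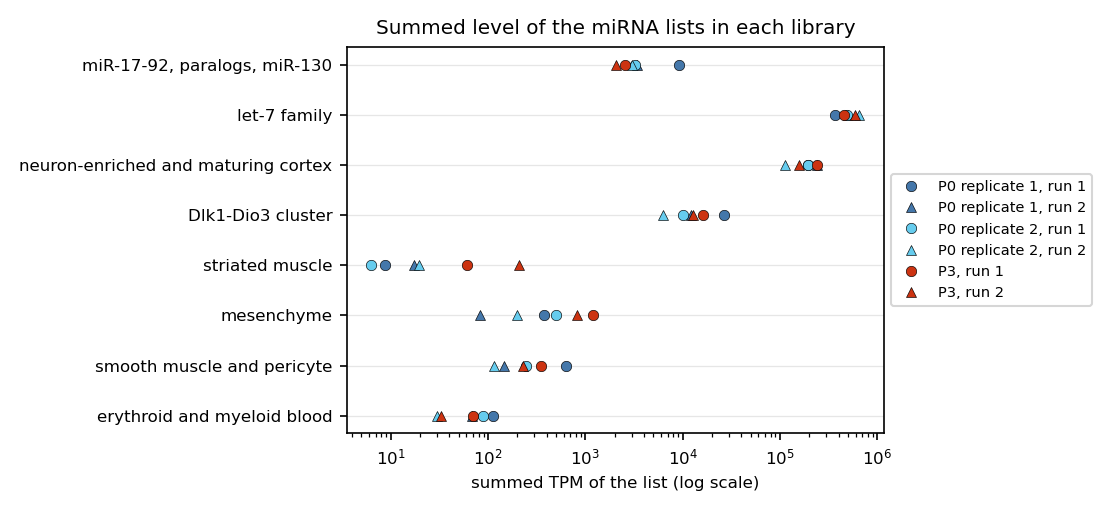
Summed TPM (horizontal log axis) of the members of 8 miRNA lists with reads, in each library (P0 samples in blue tones, P3 in red, circles for run 1 and triangles for run 2). In the striated muscle and mesenchyme lists both P3 runs lie above all P0 libraries, and in the miR-17-92 list both lie below all of them. The mesenchyme sum is almost all miR-199a-3p.

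miR-128-3p, a miRNA enriched in neurons that lowers their excitability, was the most abundant name that was higher at P3. It measured 81634 and 54206 TPM in P0 replicate 1, 82122 and 43825 TPM in replicate 2, and 141218 and 89406 TPM at P3. The P3 values were highest in each run, and the P0 samples differed little when runs were averaged (65447 ± 3498 TPM, SD, n = 2). The change was 0.82 on the log2 scale beside a P0 difference of 0.11 (edgeR adjusted p = 0.999). The other strand of the hairpin in Arpp21, miR-128-2-5p, was at 111 ± 21.7 TPM at P0 (SD, n = 2) and 231 TPM at P3, a log2 change of 1.05. That of the hairpin in R3hdm1, miR-128-1-5p, was at 0.45 and 0.30 TPM, too low to compare.

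Among the 18 listed miRNAs of neurons and the maturing cortex, 14 had at least 50 TPM, and miR-128-3p alone was higher at P3, against 16.0% of all 175 names. With run 1 of P0 replicate 1 left out, 4 of the 14 were higher, against 37.1% of the 175. Their median log2 change was -0.45, against -0.15 over all 175 names, and without run 1 of P0 replicate 1 these medians turned to 0.20 and 0.18. miR-124, the most typical neuronal miRNA, was lower in both runs at 38225 TPM against 77597 ± 49550 TPM at P0 (SD, n = 2). Its P0 libraries ran from 39726 to 160635 TPM and its P3 runs were 37993 and 38457 TPM, so that the P0 difference of 1.40 was larger than the change of -1.02. miR-9a-5p, a regulator of neural progenitors, was at 39883 and 16851 TPM in the P3 runs, inside the P0 range of 11632 to 49173 TPM. miR-125b-5p, miR-138-5p, miR-29a-3p and miR-137-3p had mixed directions as well. miR-137-3p ranged from 59.9 to 2043 TPM among the P0 libraries and stood at 138 and 149 TPM at P3.

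miR-127-3p and miR-433-3p, neighbours in the imprinted Dlk1-Dio3 cluster, were both higher at P3. miR-127-3p measured 2124 and 1777 TPM in P0 replicate 1, 3404 and 1751 TPM in replicate 2, and 4605 and 4340 TPM at P3. Its log2 change was 0.98 beside a P0 difference of 0.40. miR-433-3p measured 322 and 1038 TPM in P0 replicate 1, 1068 and 626 TPM in replicate 2, and 1993 and 1498 TPM at P3, a change of 1.19 beside 0.32. In both, the P3 runs exceeded all P0 libraries. The opposite strand miR-433-5p went from 37.1 ± 17.4 to 70.9 TPM and was higher in both runs, with a change of 0.91 just inside the P0 difference of 0.97.

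Most other members of the cluster had mixed directions. Of 43 listed members, 42 had reads and 25 reached 50 TPM. Of these, 4 were higher at P3 past the P0 difference, where 17 of all 175 names (9.71%) were, namely miR-127-3p, miR-433-3p, miR-329-5p (32.1 ± 11.1 to 97.0 TPM, change 1.57) and miR-409a-3p (71.3 ± 8.40 to 116 TPM, change 0.70). The opposite strand of miR-329-5p, miR-329-3p, was at 36.9 ± 30.3 TPM at P0 and 43.8 TPM at P3, with mixed directions. Of the 25, miR-494-3p alone was lower in both runs, at 9.84 TPM against 66.9 ± 73.6 TPM, within the P0 difference. The median change of the 25 was -0.01. It was 0.56 without run 1 of P0 replicate 1, and 8 of the 25 were then higher past the P0 difference, against 24.6% of the 175 names. miR-434-3p, which starts 1941 bases from miR-127-3p, was at 580 ± 615 TPM at P0 and 284 TPM at P3. Like miR-411-5p (1763 ± 1950 and 631 TPM) and miR-376b-3p (540 ± 714 and 110 TPM), it was high in run 1 of P0 replicate 1, at 1586 TPM against 128 to 445 TPM in the other P0 libraries.

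The other names that were higher past the P0 difference were mostly of lower level. miR-664-2-5p measured 11.3 and 45.0 TPM in P0 replicate 1, 91.1 and 93.5 TPM in replicate 2, and 190 and 244 TPM at P3, a change of 1.83 beside a P0 difference of 1.68. miR-221-5p, the minor strand of a hairpin linked to cell cycle control, went from 76.7 ± 44.4 to 228 TPM. Its major strand miR-221-3p was at 1307 ± 140 and 2415 TPM, but its P3 value in run 2 (1715 TPM) lay below that of P0 replicate 1 (2128 TPM). miR-331-3p had the smallest P0 difference of the 17 higher names, 0.09, with 54.8 to 93.4 TPM in the P0 libraries and 181 and 196 TPM at P3, a change of 1.29.

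miR-1839-5p, cut from the small Cajal body RNA gene Scarna15, reached 4961 and 3869 TPM at P3 against 967 to 3757 TPM at P0. The change was 1.11 and the P0 difference 1.04. miR-1224 (57.5 ± 12.5 to 156 TPM), miR-760-3p (101 ± 39.1 to 213 TPM) and miR-139-5p (48.0 ± 15.4 to 80.2 TPM) completed the known names. Without run 1 of P0 replicate 1 the log2 change of miR-760-3p was 0.66 in place of 1.07 and that of miR-139-5p 0.47 in place of 0.73. Candidate 11, a sequence with no registered miRNA name here, stood at 859 and 1126 TPM in P0 replicate 1, 1224 and 1394 TPM in replicate 2, and 1868 and 2556 TPM at P3. Both P3 runs were above all P0 libraries, with a change of 0.94 beside a P0 difference of 0.40.

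**Figure D4:**
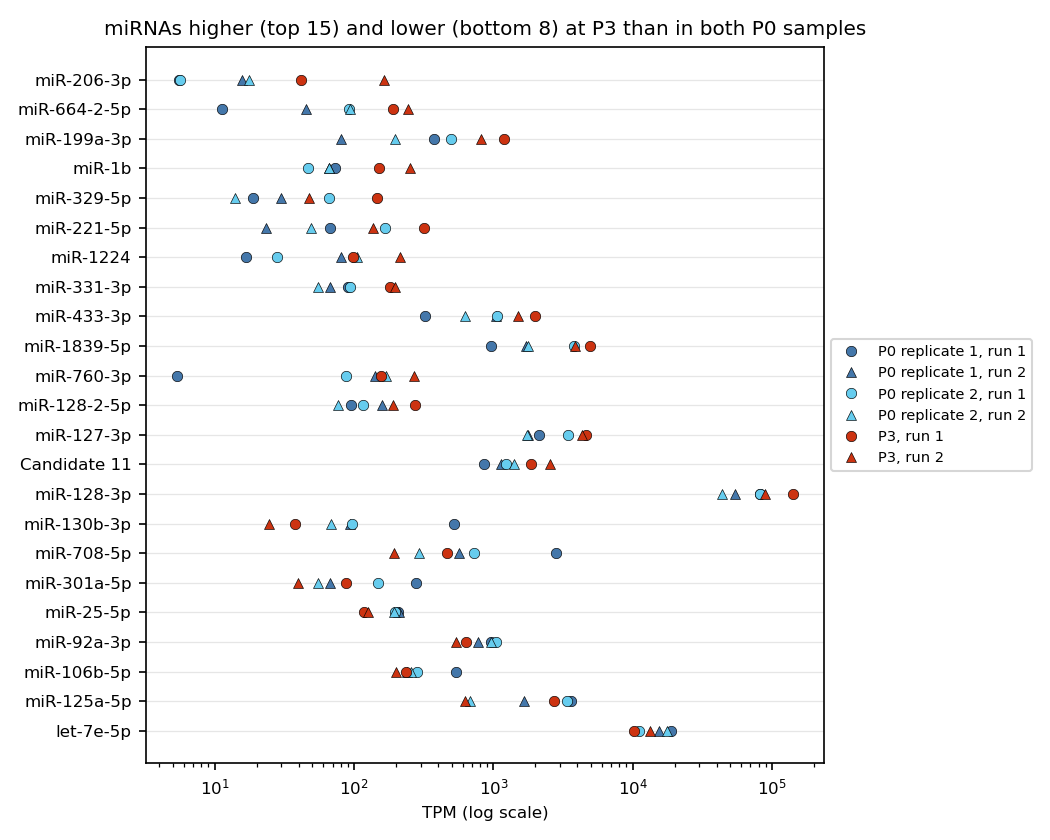
TPM (horizontal log axis) in each of the 6 libraries for the 15 higher names with the largest change and the 8 lower names past the P0 difference, with P0 samples in blue tones, P3 in red, circles for run 1 and triangles for run 2. The P3 points of miR-206-3p, at 41.5 and 164 TPM, lie to the right of all its P0 points, and those of miR-25-5p, at 118 and 125 TPM, to the left.

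Of the 8 lower names, 4 belonged to the list of miR-17-92, its paralogous clusters and miR-130. Among these 4 was miR-301a-5p, the strand by which the listed miR-301a was counted. In the list 12 of 16 members had at least 50 TPM. In this list 6 members were lower at P3 in both runs and 0 higher, against 10.3% lower over all 175 names, and 4 were lower past the P0 difference, against 4.57%. The median log2 change was -1.49, and -0.15 over all names. These medians were -0.59 and 0.18 without run 1 of P0 replicate 1. The summed level was 9277, 3410, 3262 and 3043 TPM in the P0 libraries and 2535 and 2066 TPM at P3. The highest sum was that of run 1 of P0 replicate 1, and the P3 sums were below the other 3 P0 libraries as well.

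miR-92a-3p, the most conserved product of the miR-17-92 cluster, had the smallest P0 difference of the 12 members. It measured 962 and 775 TPM in P0 replicate 1, 1047 and 963 TPM in replicate 2, and 636 and 535 TPM at P3. Both P3 runs lay below all P0 libraries, and the change was -0.68 beside a P0 difference of 0.21 (edgeR adjusted p = 0.999). miR-25-3p, which shares the seed AUUGCAC, was at 87.8 TPM in run 1 of P0 replicate 1, 506 to 589 TPM in the other P0 libraries and 369 and 359 TPM at P3. Its opposite strand miR-25-5p was at 201 ± 10.4 TPM at P0 (SD, n = 2), with all 4 P0 libraries between 192 and 210 TPM, and at 118 and 125 TPM at P3. That change, -0.72, stood beside a P0 difference of 0.10.

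miR-106b-5p, from the same hairpin cluster in Mcm7, went from 331 ± 86.3 to 218 TPM (change -0.60, P0 difference 0.54). Its change was -0.23 without run 1 of P0 replicate 1. The third hairpin of that cluster gave miR-93-5p at 714 ± 306 and 466 TPM, with its P3 value in run 1 above that of P0 replicate 2. miR-17-5p, which shares the seed AAAGUGC with miR-106b-5p, was lower in both runs at 116 TPM against 552 ± 554 TPM. There run 1 of P0 replicate 1 held 1639 TPM and the other P0 libraries 159 to 248 TPM, and the P0 difference of 2.56 exceeded the change of -2.23.

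miR-130b-3p, a member of the miR-130 and miR-301 seed family, had the most negative change of the 8. It measured 520 and 94.0 TPM in P0 replicate 1, 97.3 and 68.7 TPM in replicate 2, and 37.3 and 24.5 TPM at P3. The P3 runs were the lowest, and the size of the change depended on run 1 of P0 replicate 1: the log2 change was -2.62 with that run, beside a P0 difference of 1.88, and -1.49 without it. miR-301a-5p, whose seed was not compared with that of miR-130b-3p, went from 138 ± 50.7 to 63.6 TPM (change -1.11, P0 difference 0.76). Without run 1 of P0 replicate 1 the change of miR-301a-5p was -0.41, inside the P0 difference of 0.59.

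Beside miR-25-5p, the lower names outside that list were miR-708-5p, let-7e-5p and miR-125a-5p. miR-708-5p only just passed the P0 difference, its change of -1.74 and P0 difference of 1.74 being of equal size at this rounding. It measured 2813, 568, 720 and 291 TPM at P0 and 461 and 193 TPM at P3. Without run 1 of P0 replicate 1 its change was -0.71. let-7e-5p was the most abundant of the lower names, at 18813 and 15433 TPM in P0 replicate 1, 11149 and 17742 TPM in replicate 2, and 10264 and 13285 TPM at P3. Within each run P3 was lowest, but the P3 value of run 2 was above the run 1 value of P0 replicate 2. The change was -0.42 beside 0.25. miR-125a-5p, its neighbour, measured 3620 and 1648 TPM, 3383 and 683 TPM, and 2710 and 622 TPM in the same order, a change of -0.49 beside 0.37. Without run 1 of P0 replicate 1 its change was -0.14, inside the P0 difference of 0.30. The third miRNA of that gene group, miR-99b-5p, was at 2559 ± 2214 TPM at P0 and 3047 TPM at P3, with mixed directions.

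The let-7 family has the seed GAGGUAG and is known to increase as neural cells differentiate. Of the 8 listed members, which do not include let-7g-5p, let-7f-5p was higher in both runs (64318 ± 8533 to 74586 TPM), let-7e-5p and miR-98-5p were lower, against 16.0% higher and 10.3% lower over all names, and the median change was 0.06. Over the 9 RefSeq names with that seed, let-7g-5p included, it was 0.06 as well. The median of the 8 was -0.04 without run 1 of P0 replicate 1, where 1 was higher and 3 were lower, against 37.1% and 13.7% of the 175 names. let-7c-5p was the most abundant name at P3, with 210200 and 314356 TPM in the runs, inside the P0 range of 183637 to 353729 TPM. let-7a-5p and let-7b-5p were at 73480 and 69815 TPM at P3 against 69616 ± 7185 and 67026 ± 27509 TPM at P0. Of the other names among the 10 most abundant, miR-103-3p (18311 ± 6334 to 29635 TPM) and miR-107-3p (12342 ± 3354 to 17282 TPM) were higher in both runs, within the P0 difference. let-7g-5p, at 11294 ± 6101 and 16647 TPM, had mixed directions.

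Counted by tags, the unique sequences as deposited, 433 of 2515 tags of at least 10 TPM (17.2%) were higher and 271 (10.8%) lower at P3. Past the P0 difference were 250 (9.94%) and 175 (6.96%). edgeR on the tags called 0 of 2514 (0.0%), with 31 at an unadjusted p under 0.05, and DESeq2 called 2. In run 2 alone, edgeR called 12 of 2484 tags (0.483%), 7 higher and 5 lower. The 2 that carried a name were forms of miR-206-3p, the 22 nt mature form at 8.95 and 9.02 TPM at P0 and 86.1 TPM at P3 (log2 change 3.25, edgeR adjusted p = 0.0476) and a 21 nt form that ends 1 nt earlier (4.91, 7.23 and 62.5 TPM, log2 change 3.35, edgeR adjusted p = 0.0466).

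Of the tags of at least 100 TPM at P3 or in the P0 mean, 69 were higher and 28 lower past the P0 difference, of which 16 and 2 fitted no name. The total of tags at this minimum was not counted, so these counts have no share. From 10 TPM the shares were 9.94% and 6.96%. The higher tags included 15 forms of miR-128-3p, 6 of miR-127-3p, 4 of Candidate 11 and 3 of miR-433-3p. The 15 forms of miR-128-3p together were at 61026 TPM at P0 and 108783 TPM at P3. How many forms of each name reached 100 TPM was not counted, and an abundant miRNA has more forms that can. The higher tag with the largest log2 change was the mature form of miR-487b-3p, at 46.3, 69.2, 32.1 and 19.98 TPM in the P0 libraries and 233 and 159 TPM at P3 (log2 change 2.20). Over all its tags miR-487b-3p was at 371 ± 402 TPM at P0 and 414 TPM at P3, with mixed directions.

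The 10 lower tags with the largest change were all short forms. They began at the mature 5' end, were 18 to 20 nt long and ended 3 to 6 nt before the mature 3' end, and they belonged to miR-16-5p, miR-17-5p, miR-130a-3p, miR-130b-3p, miR-708-5p, miR-98-5p, miR-93-5p and miR-125a-5p. The 18 nt form of miR-16-5p measured 3620 TPM in run 1 of P0 replicate 1, 56.3 to 161 TPM in the other P0 libraries, and 90.0 and 21.5 TPM at P3. Each of these 10 tags was highest in that same library, and the P3 values were below both P0 samples in each run. Whether the short tags of that library carry the lower tag counts was not tested beyond leaving it out, which gave 308 tags lower and 339 higher past the P0 difference.

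The same was asked of the 8 lower miRNAs, using tags identical to the mature sequence alone. Such tags made up 0.62% of the P0 level for miR-92a-3p, 0.20% for miR-125a-5p and 41.2% for let-7e-5p. On these tags miR-25-5p changed by -0.88 and miR-130b-3p by -1.56 on the log2 scale, at P3 levels of 21.4 and 5.79 TPM. Both had mixed directions, and the change of miR-130b-3p lay inside its P0 difference of 1.74. miR-301a-5p changed by -1.03 (P0 difference 0.77) and miR-708-5p by -0.54 (P0 difference 0.50), both lower in both runs. miR-106b-5p changed by -0.53, with mixed directions. miR-92a-3p changed by 0.04 and miR-125a-5p by 0.81, at P0 levels of 5.80 and 4.77 TPM. let-7e-5p was at 6497 TPM at P0 and 5999 TPM at P3, with mixed directions, and was the only one of the 8 to reach 50 TPM in this count. None of the 8 therefore met the rule and the minimum together. Of the higher names, miR-206-3p changed by 3.04, miR-199a-3p by 1.70 and miR-128-3p by 0.90 with identical tags. By the same rule and minimum, 8 of the 17 higher names were kept, and another 5, with miR-206-3p at 49.8 TPM at P3 among them, passed the rule but stayed under 50 TPM. Of the other 4, miR-664-2-5p (1.76, P0 difference 2.15), miR-221-5p (1.503 and 1.514) and miR-139-5p (0.51 and 0.63) no longer passed the P0 difference. miR-409a-3p, at 0.28 TPM at P0 in this count, had a change of -0.05 with mixed directions.

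Levels at the neighbouring stages, each from 1 tissue sample, place the change between P0 and P3 in the series. miR-206-3p was at 10.4 TPM at E17 and 726 TPM at P7, and miR-199a-3p at 347 and 2024 TPM. miR-128-3p was at 23316 TPM at E17 and 153459 TPM at P7, and miR-127-3p at 1692 and 6821 TPM. P3 lay between P0 and P7 for each of these. Other higher names were lower at P7 than at P3. miR-331-3p was at 44.7 TPM at E17 and 42.8 TPM at P7, below its 188 TPM at P3. Candidate 11 was at 2212 TPM at P3 and 1386 TPM at P7. miR-128-2-5p, at 231 TPM at P3, was at 79.1 TPM at P7, below its P0 mean of 111 TPM. The run means of miR-1839-5p and miR-664-2-5p were also lower at P7 than at P3. Of the lower names, miR-92a-3p was at 2509 TPM at E17 and 256 TPM at P7 and miR-25-5p at 511 and 67.9 TPM, so that P3 again lay between P0 and P7, while miR-130b-3p was at 660 and 35.5 TPM with a P3 level of 30.9 TPM. These stages have no tissue replicate, and no test was made of them.

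**Figure D5:**
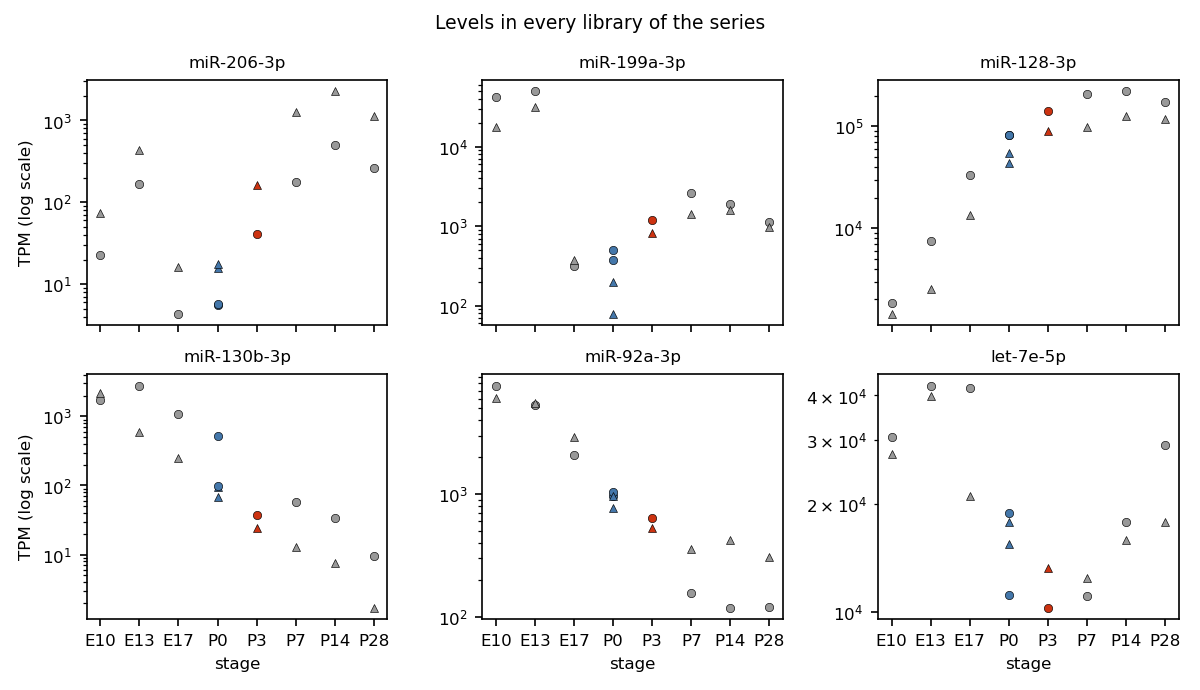
TPM (vertical log axis) of 6 miRNAs in each of the 18 libraries by stage (horizontal axis), with P0 in blue, P3 in red, the other stages in grey, circles for run 1 and triangles for run 2. For miR-128-3p the levels go from 23316 TPM at E17 (mean of the runs) through 115312 TPM at P3 to 153459 TPM at P7.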

How the data were processed

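Small RNA of rat cortex was sequenced on the Illumina platform. The authors removed low quality reads, adapters and contaminants and deposited, per library, each unique tag with its read count and its length in nt (another value, used as deposited), without normalization. TPM was the count per 1000000 clean reads. Tags were named by 692 mature sequences of RefSeq (GRCr8), 92 candidates and 5 further sequences from the study's primer and change lists. Tags had to match without mismatch where they overlap the mature sequence, start no more than 3 nt from its 5' end and extend no more than 3 nt beyond its 3' end, and tags cut short to 18 nt were kept. Of the reads of a library, 0.96 to 2.04% fitted several names and were counted for each.

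TPM of names used tags present in both runs of a sample, and the test used all fitting tags of either run. Counts summed over runs were tested with edgeR 4.0.16 (TMM, quasi-likelihood in its legacy form, Benjamini-Hochberg) in R 4.3.3 for names that reached 10 counts in 2 or more of the tissue samples. DESeq2 1.42.0 was the alternative. In simulated counts for the 475 names, edgeR recovered 95.3% of 4-fold changes at a dispersion of 0.02, 21.7% at 0.1 and 0% at 0.4. The observed biological coefficient of variation of 0.542 is the square root of a dispersion that lies between 0.1 and 0.4. At that spread most changes of this size would not be called. Python 3.11.15 was used elsewhere. Named were up to 15 higher and 15 lower names with the largest change past the P0 difference, every called name, the 10 most abundant at P3, list members of at least 50 TPM and Candidate 11. Names used in alternatives, neighbours and opposite strands were chosen after their values were seen. Members and lists were chosen with earlier results of these data known, and 3 old names of the Dlk1-Dio3 list (miR-409-3p, miR-409-5p and miR-299) were matched after values were seen, as were miR-126, miR-126* and miR-218 of the other lists. Intervals cover counting error only.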

Additional observations from a re-analysis of the deposited data

How the results depend on the processing

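The test of names called 1 of 475 and lost that call without TMM factors, in run 1 alone, without run 1 of P0 replicate 1 (chosen after seeing the data), with tags seen in both runs and with identical tags (0 called in each). With the paper's names alone 0 were called, but miR-1-3p is not among them and was not tested. With the run number as a replicate block over the 6 libraries 0 of 458 names and 0 of 2513 tags were called; the runs share a tissue sample within each stage and are no biological pairs. For tags, 12 were called in run 2 alone and 2 by DESeq2. Names higher past the P0 difference numbered 17, against 45 in run 2 alone, 39 without run 1 of P0 replicate 1 and 3 with the paper's names. Names lower numbered 8, against 13 in run 1 alone, 20 in run 2 alone, 0 with identical tags (of the 8 only let-7e-5p then reached 50 TPM), 5 with the paper's names, 14 after TMM scaling and 13 without run 1 of P0 replicate 1. Leaving out a P0 sample left no P0 difference to pass and gave 43 to 90 names higher, 29 to 63 lower, 907 to 922 tags higher and 584 to 853 tags lower. Tags higher numbered 985 from 1 TPM, 51 from 100 TPM (the mean over the 3 tissue samples, as for the 10 TPM minimum) and 339 without run 1 of P0 replicate 1 against 250, and tags lower 758, 23 and, without run 1 of P0 replicate 1, 308 against 175. The median P0 difference was 1.76 in run 1, 0.67 in run 2 and 0.67 without run 1 of P0 replicate 1 against 1.15. With identical tags 3 of the 25 names past the P0 difference changed sign, miR-92a-3p (0.040), miR-125a-5p (0.81) and miR-409a-3p (-0.05). In the other 208 values computed for 23 of these names (without miR-139-5p and miR-409a-3p) the sign was kept. Without run 1 of P0 replicate 1 the median change of all 175 names and that of the neuronal list turned positive. The causes were not tested. P3 has 1 tissue sample.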
